A study of Drosophila melanogaster with 4 samples.

Results

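The genes described here encode the cytosolic translation machinery of Drosophila melanogaster: the proteins of the ribosome and the factors that start, extend and end protein synthesis. They were chosen by symbol. A gene was taken if its current NCBI symbol begins with RpL, RpS, RpLP, eIF, eEF or eRF, or names a cytosolic aminoacyl-tRNA synthetase, and if it had a value on at least 3 of the 4 arrays. This gave 30 genes of the 1444 genes with values on as many arrays. They comprised 15 ribosomal protein genes, 11 initiation factor genes and 4 genes of elongation and release factors. The array annotation lists 60 genes whose symbols meet the rule, of which 29 had no value on any array. Among those without a value were all 6 listed synthetase genes (AlaRS, IleRS, SerRS, ThrRS, alpha-PheRS and beta-PheRS), so the synthetases are not represented in the results. RpL3 had a value on replicates 1 and 2 only, at log2 ratios of 0.10 and 0.19, and was not tested.

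RNA came from whole heads of unmated Oregon-R wild-type males that were 3 to 4 days old when treatment began. One arm was kept for 7 days on normal food with 1.5 mg/ml pilocarpine, a drug that activates muscarinic acetylcholine receptors, and the other for 7 days on normal food alone. Per the labels, RNA was made from 8 pools of heads, and each of 4 two-colour cDNA arrays compared a drug-fed pool with the control pool of its parallel set, so the arrays are 4 biological replicates of pooled flies. Treated RNA carried Cy5 on replicates 1 and 2 and Cy3 on replicates 3 and 4.

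Translation begins when the initiation factor eIF2, kept in its active GTP-bound state by eIF2B, delivers the initiator tRNA to the small ribosomal subunit, while eIF4E, eIF4G and the helicase eIF4A bring the subunit to the cap of the messenger RNA and eIF3 bridges the complexes. After eIF5B has joined the large subunit, eEF1 loads aminoacyl-tRNAs and eRF1 with eRF3 releases the finished chain. Ribosomal proteins are made in matched amounts and their messages are among the most abundant of most cells. In neurons, protein synthesis is needed for lasting forms of memory and synaptic change.

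Each value below is the log2 of the pilocarpine signal over that of normal food, with the median over all probes of each array set to 0. The labels do not state which channel is the numerator. Replicates 3 and 4 were turned in sign, on the reading that the deposited ratio is Cy5 over Cy3, which is the usual GenePix setting and is likely but not settled. Signs in the text hold for this reading unless the other reading is named, in which replicates 3 and 4 keep the deposited sign. In it every value of these 2 arrays changes sign. The values of replicates 1 and 2, the distance of any single value from 0, and whether replicates 3 and 4 lie on the same side of their medians are the same under both. Both readings take the drug-fed pool as the numerator on replicates 1 and 2, which the labels do not settle either. A deposited ratio of Cy3 over Cy5 would turn every sign of the first reading, and was not read separately. In whole heads a ratio cannot tell fewer cells that express a gene from less RNA per cell. Two-colour ratios carry no level, so the abundance of one gene cannot be set against that of another.

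No gene of the translation machinery passed the test. Of the 30 genes, 0 were higher and 0 were lower at an adjusted p of 0.05 (limma, Benjamini-Hochberg adjustment over 1444 genes), beside 0.139% of all genes higher and 0.0% lower. At an unadjusted p of 0.05, 0 of the 30 genes passed, beside 7.41% of all genes. In the other reading the counts were again 0 higher and 0 lower, beside 0.0% and 0.0% of all genes, and 0 of the 30 passed at an unadjusted p of 0.05, beside 8.73%. The lowest unadjusted p among the 30 belonged to eIF3a (0.0753, limma, adjusted p = 0.764), and in the other reading to eIF2Bbeta (0.124, limma, adjusted p = 0.677). The median over the 30 genes was 0.06, against -0.01 over all genes tested, and -0.01 against 0.00 in the other reading. The means of 14 of the 30 genes had opposite signs in the 2 readings. The share over all genes is not given for this count, so it does not set these genes apart.

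**Figure D1:**
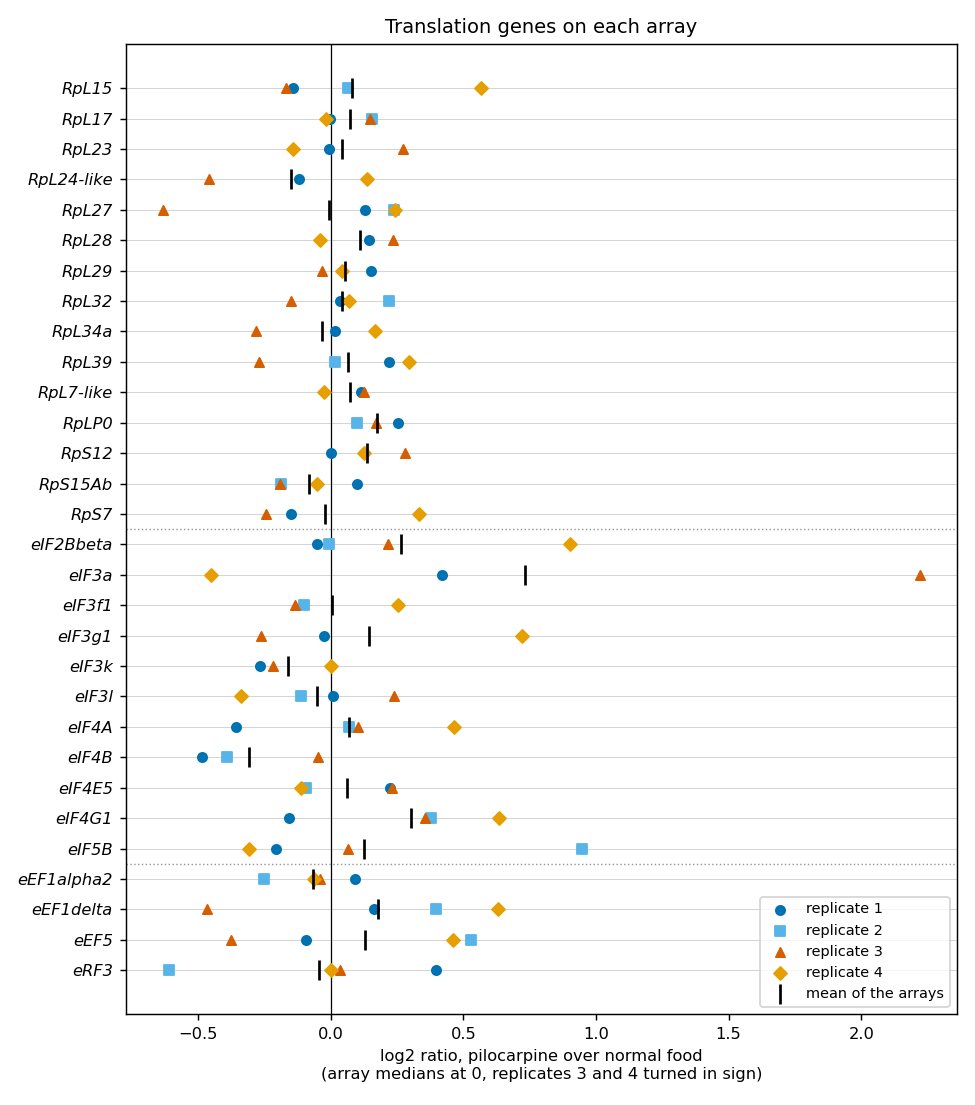
Log2 ratio of pilocarpine over normal food (x axis, array medians at 0, replicates 3 and 4 turned in sign) for the 30 translation genes, from ribosomal proteins at the top through initiation factors to elongation and release factors, with dotted lines between the classes. Coloured markers are single arrays and the black bar is their mean. Ribosomal protein values stay between -0.63 and 0.57, whereas eIF3a reaches 2.22 on replicate 3.

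The ribosomal protein genes lay close to the array medians. Their means ranged from -0.15 to 0.17 with a median of 0.05, and from -0.14 to 0.19 with a median of 0.04 in the other reading. On single arrays 1 of their 51 values was further than 1.5-fold from the array median in either direction (1.96%), beside 10.9% of the values of all genes. The translation factors had 7 such values of 55 (12.7%). The median SD over arrays was 0.15 for the ribosomal protein genes, 0.34 for the translation factor genes and 0.30 for all genes tested. With replicates 3 and 4 as deposited these were 0.21, 0.41 and 0.27. These shares and spreads describe the lists and were not tested.

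The width of the intervals reflects the spread of each gene over arrays and a spread shared by all genes. In limma the SD of each gene is drawn towards a common value, 0.328 here and 0.295 in the other reading. The 95% interval of the mean (limma, not adjusted for the number of genes) lay inside 1.5-fold in either direction for all 15 ribosomal protein genes, and for all 15 in the other reading. Among all 30 genes this held for 25, beside 65.9% of all genes, and for 24 in the other reading, beside 64.5%. The 5 genes whose interval reached further were the initiation factor genes eIF2Bbeta, eIF3a, eIF3g1, eIF4B and eIF4G1. Changes within the intervals were not detectable with 4 arrays.

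**Figure D2:**
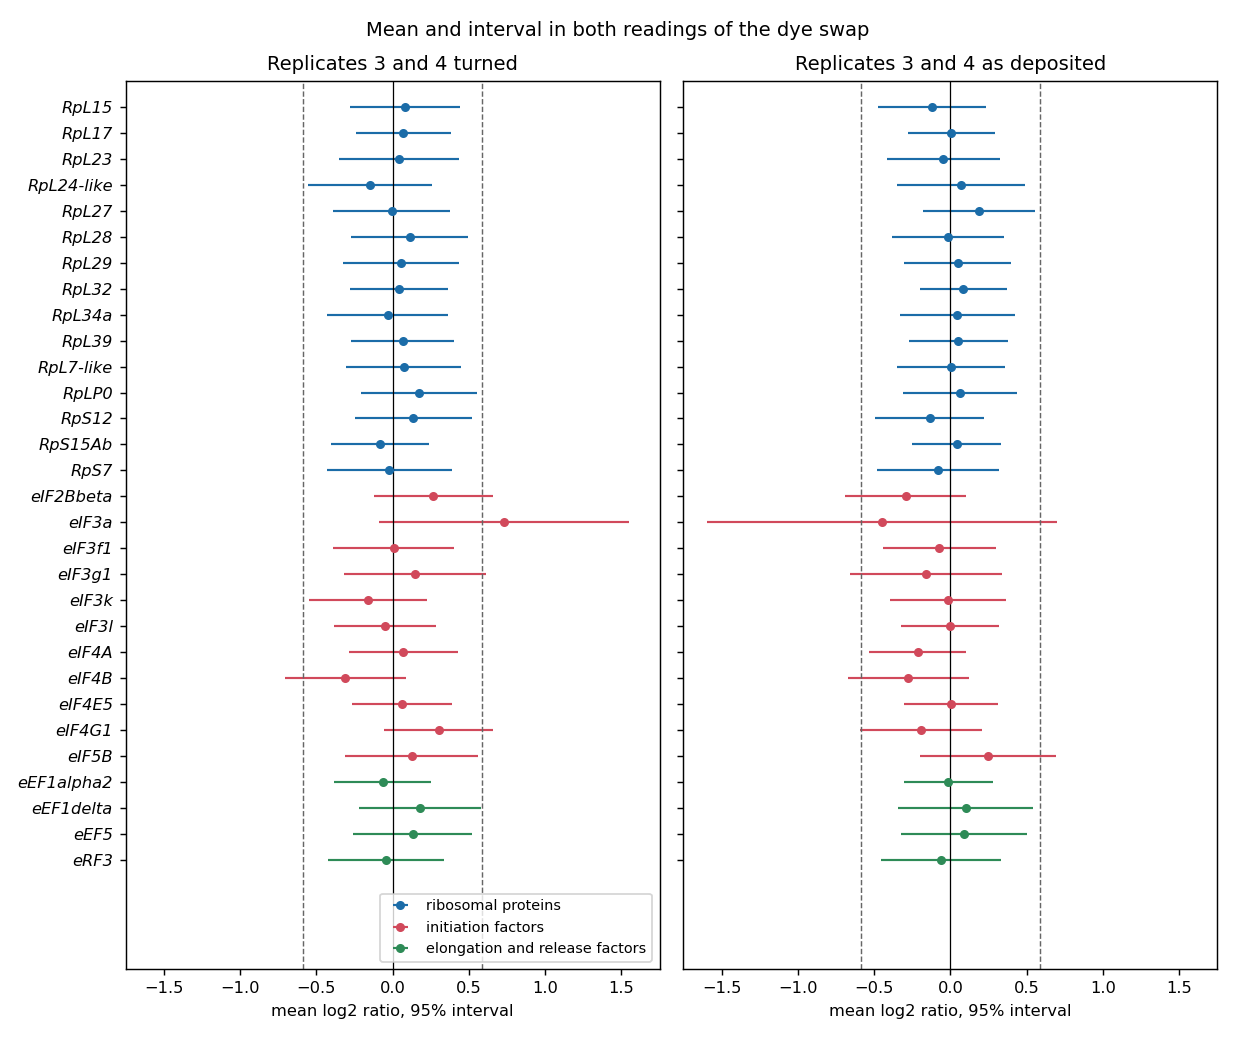
Mean log2 ratio (x axis) of each of the 30 genes with its 95% interval from limma, in the reading with replicates 3 and 4 turned in sign (left) and as deposited (right). Dashed lines mark 1.5-fold in either direction. All 15 ribosomal protein intervals lie between the dashed lines in both panels, and every one of the 30 intervals spans 0 in both.

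Among proteins of the large subunit, RpLP0, which forms the base of the stalk that recruits translation factors, was the only gene above the median on every array that measured it. Its log2 ratios were 0.25, 0.10 and 0.17 on replicates 1, 2 and 3, with a mean of 0.17 ± 0.08 (SD, n = 3; limma adjusted p = 0.921). Beside it, 8.73% of all genes were above the median on every measured array. As deposited, replicate 3 was at -0.17 and the mean was 0.06. On that array the duplicate spots of RpLP0 lay on opposite sides of the median, with a gap of 0.50. In all, 2 of the 30 genes kept one side of the median on every measured array, beside 17.8% of all genes, and 1 did so in the other reading, beside 23.4%. Its interval, from 0.87-fold to 1.47-fold, included no change.

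RpL32, known to fly workers as rp49 and widely used as a reference gene for quantitative PCR, was at 0.03, 0.22, -0.15 and 0.07 on replicates 1 to 4. Its mean was 0.04 ± 0.15 (SD, n = 4) and 0.08 in the other reading, with an interval from 0.83-fold to 1.29-fold. The annotation lists 10 probes for it, of which 2 had values. They were alike on replicates 1, 2 and 4 and apart on replicate 3, where one probe was at -0.57 and the other at 0.27.

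RpL17, a protein at the exit of the peptide tunnel, was at 0.00, 0.16, 0.15 and -0.02, with a mean of 0.07 ± 0.09 (SD, n = 4). In the other reading its mean was 0.01 and its SD 0.125. Its duplicate spots lay on opposite sides of the median on replicates 1, 2 and 4, and their median gap was 0.20. RpL15 was at -0.14, 0.06, -0.17 and 0.57, so that replicate 4 set the sign of its mean of 0.08 ± 0.34 (SD, n = 4). RpL27 was at 0.13, 0.24, -0.63 and 0.24. Replicate 3 stood apart, and without it the mean moved from -0.01 to 0.20. RpL39, a small protein that lines the peptide tunnel, was at 0.22, 0.02, -0.27 and 0.30, and its 2 probes differed in sign on replicates 2 and 4 (0.33 and -0.30 on replicate 2, 0.62 and -0.02 on replicate 4).

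The remaining large-subunit genes lacked replicate 2. RpL23 was at -0.01, 0.27 and -0.14 on replicates 1, 3 and 4. RpL28 was at 0.14, 0.23 and -0.04, and RpL29 at 0.15, -0.03 and 0.04. RpL34a, one of a pair of paralogous genes, was at 0.02, -0.28 and 0.17. None of these 4 genes kept one side of the array median on all 3 arrays, and their means lay between -0.03 and 0.11.

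Of the small-subunit genes, 3 were measured. RpS12, which flies use in the recognition of cells with too few functional ribosomal protein genes, was at 0.00, 0.28 and 0.13 on replicates 1, 3 and 4, with a mean of 0.14 ± 0.14 (SD, n = 3; limma adjusted p = 0.946) and of -0.14 in the other reading. RpS7 was at -0.15, -0.24 and 0.33 on the same arrays, on both sides of the median. RpS15Ab, a paralogue of RpS15Aa, was at 0.10, -0.19, -0.19 and -0.05, with a mean of -0.08 ± 0.14 (SD, n = 4). This averages 2 probes, which were at -0.33 and -0.04 on replicate 2 and at 0.04 and -0.14 on replicate 4. The probe means were -0.12 and -0.05. A cDNA probe can bind the transcripts of near-identical paralogues, so the values of RpS15Ab, RpL34a and, below, eEF1alpha2 and eIF4E5 may include their partners.

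The symbol rule also takes in 2 genes that are not ribosomal proteins of the mature subunit. RpL24-like and RpL7-like are named for their likeness to ribosomal proteins, and their yeast relatives act in the assembly of the large subunit. RpL24-like was at -0.12, -0.46 and 0.14 on replicates 1, 3 and 4 with a mean of -0.15 ± 0.30 (SD, n = 3), and of 0.07 in the other reading. RpL7-like was at 0.11, 0.13 and -0.03 on these arrays. Without them the median of the remaining 13 ribosomal protein genes was again 0.05, and 0.04 in the other reading.

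The initiation factor genes spread more widely. Their means ranged from -0.31 to 0.73 with a median of 0.07, and from -0.45 to 0.25 with a median of -0.16 in the other reading. In that reading 9 of the 11 means were below 0, beside 720 of the 1444 over all genes tested. In the first reading 3 of the 11 were below 0, beside 744 of the 1444. Means further than 0.2 from 0 were found for 4 of the 30 genes, all initiation factors (eIF2Bbeta, eIF3a, eIF4B and eIF4G1), beside 31.2% of all genes. With replicates 3 and 4 as deposited there were 5 (eIF2Bbeta, eIF3a, eIF4A, eIF4B and eIF5B), beside 34.2%.

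**Figure D3:**
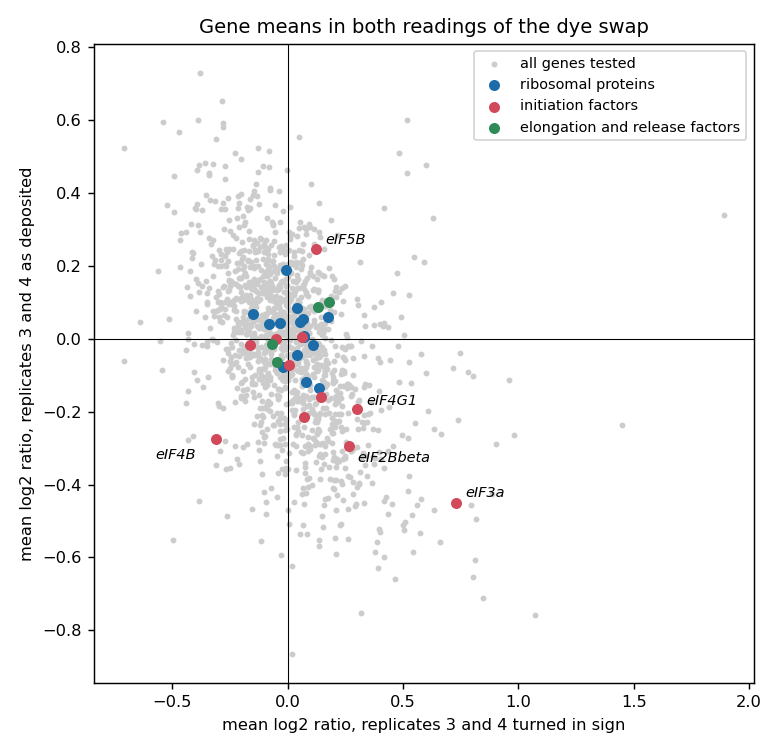
Mean log2 ratio of every gene with replicates 3 and 4 turned in sign (x axis) and as deposited (y axis). Grey points are the 1444 genes tested and coloured points the 30 translation genes. Ribosomal proteins gather near the origin. The mean of eIF3a is 0.73 on the x axis and -0.45 on the y axis, and that of eIF4B is below 0 on both.

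The gene eIF3a encodes the largest subunit of eIF3, the scaffold of the small-subunit initiation complex. It was at 0.42, 2.22 and -0.45 on replicates 1, 3 and 4 and lacked replicate 2. Its mean of 0.73 ± 1.36 (SD, n = 3; limma adjusted p = 0.764) ranked 17 by size among the 1444 genes, and its SD over arrays ranked 1. In the other reading these ranks were 83 and 3. Without replicate 3 the mean was -0.01, so it rests on that array. Replicates 3 and 4 have the same dye orientation and disagreed in sign under both readings. Both spots of the probe gave the same picture, with 2.36 and 2.08 on replicate 3 and -0.46 and -0.44 on replicate 4. As deposited, the mean was -0.45 ± 1.53 (SD, n = 3; limma adjusted p = 0.842).

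The other eIF3 subunits lay nearer to the median than eIF3a on replicate 3. On that array eIF3f1 was at -0.14, eIF3g1 at -0.26, eIF3k at -0.22 and eIF3l at 0.24. The subunit eIF3g1, which binds RNA, was at -0.02 and 0.72 on replicates 1 and 4, and had a mean of 0.14 ± 0.51 (SD, n = 3). The remaining values were -0.10 and 0.25 on replicates 2 and 4 for eIF3f1, and -0.27 and 0.00 on replicates 1 and 4 for eIF3k. The gene eIF3l was at 0.01, -0.11 and -0.34 on replicates 1, 2 and 4. Its duplicate spots on replicate 2 lay on opposite sides of the median, with a gap of 0.82, the widest of the 121 pairs of the 30 genes. The mean of eIF3k was -0.16 ± 0.14 (SD, n = 3; limma adjusted p = 0.927). With replicates 3 and 4 as deposited it was -0.02. The 5 subunits had a median of 0.01 and of -0.07 in the other reading.

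Of the factors at the cap, eIF4G1, the scaffold that joins the cap-binding protein to the helicase, was at -0.16, 0.38, 0.36 and 0.63. It was above the median on replicates 2, 3 and 4 and below it on replicate 1. The mean of 0.30 ± 0.33 (SD, n = 4) did not pass (limma adjusted p = 0.794). With replicates 3 and 4 as deposited it was -0.19 ± 0.43 (limma adjusted p = 0.795). Its value averages 2 probes that differed. They were at 0.14 and -0.45 on replicate 1, at 0.68 and 0.04 on replicate 3 and at 0.57 and 0.69 on replicate 4, and only the first had a value on replicate 2 (0.38). The probe means were 0.44 and 0.09. The helicase gene eIF4A was at -0.36, 0.07, 0.10 and 0.47, again with replicate 1 lowest and replicate 4 highest, and had a mean of 0.07 ± 0.34 (SD, n = 4).

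The gene eIF4B, whose product stimulates that helicase, was the only one of the 30 below the median on every array that measured it. It was at -0.49, -0.39 and -0.05 on replicates 1, 2 and 3, with a mean of -0.31 ± 0.23 (SD, n = 3; limma adjusted p = 0.828). Its duplicate spots lay on opposite sides of the median on replicate 3, with a gap of 0.14. Of all genes 9.07% were below the median on every measured array. With replicate 3 as deposited the mean was -0.28 ± 0.29 (SD, n = 3; limma adjusted p = 0.684), so that its sign held in both, while replicate 3 was then at 0.05. The cap-binding gene eIF4E5, a relative of the main eIF4E gene, was at 0.23, -0.09, 0.23 and -0.11 and had a mean of 0.06 ± 0.19 (SD, n = 4).

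The gene eIF2Bbeta encodes a regulatory subunit of eIF2B, the complex through which phosphorylated eIF2 lowers translation under stress. It was at -0.05, -0.01, 0.22 and 0.90, with a mean of 0.27 ± 0.44 (SD, n = 4; limma adjusted p = 0.868). Replicate 4 was far above the others, and without it the mean was 0.05. Replicates 1 and 2 lay close to the median. The duplicate spots fell on opposite sides of it on replicates 2 and 3, with gaps of 0.64 and 0.56. In the other reading the averaged values of all 4 arrays were below the median and the mean of eIF2Bbeta was -0.29 ± 0.42 (SD, n = 4; limma adjusted p = 0.677). It was the only one of the 30 genes below the median on every measured array in that reading, beside 12.6% of all genes, and 0 of the 30 were above it on every array, beside 10.8%. The GTPase gene eIF5B was at -0.21, 0.95, 0.06 and -0.31. Its mean of 0.12 ± 0.57 (SD, n = 4) rests on replicate 2, without which it was -0.15.

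The 4 genes of elongation and release had means between -0.07 and 0.18. The subunit eEF1delta of the complex that recharges eEF1alpha with GTP was at 0.16, 0.40, -0.47 and 0.63, with a mean of 0.18 ± 0.47 (SD, n = 4; limma adjusted p = 0.921). The gene eEF5, formerly named eIF5A, encodes the factor with the modified residue hypusine that helps ribosomes past difficult peptide bonds. It was at -0.09, 0.53, -0.37 and 0.46, with a mean of 0.13 ± 0.44 (SD, n = 4). Both genes were low on replicate 3 and high on replicates 2 and 4. The eEF1alpha2 gene, one of the pair that encode the carrier of aminoacyl-tRNA, was at 0.09, -0.25, -0.04 and -0.06, with a mean of -0.07 ± 0.14 (SD, n = 4), and varied least among the translation factors. The GTPase gene eRF3 of termination was at 0.40, -0.61, 0.04 and 0.00, with replicates 1 and 2 far apart, and had a mean of -0.04 ± 0.42 (SD, n = 4).

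Replicates 3 and 4 share a dye orientation, so whether they lie on the same side of their medians needs no choice of reading. Of the 28 translation genes measured on both, 20 lay on opposite sides of the array medians (71.4%), against 38.3% of the 1245 genes measured on both. Of these 20 genes, 12 were below the median on replicate 3 and above it on replicate 4, and 8 were the reverse, a split that swaps in the other reading. Among ribosomal protein genes 12 of 14 lay on opposite sides, and among translation factors 8 of 14. Some of these sides were set by values close to 0, as for RpL29 (-0.03 and 0.04). Others were set by larger values, as for RpL27 (-0.63 and 0.24). Across the 14 ribosomal protein genes the 2 arrays correlated at r = -0.54 (Spearman's rho = -0.61), across the 14 translation factor genes at r = -0.47 (rho = -0.37), and across the 1245 genes at r = 0.40 (rho = 0.34). The value for the translation factors includes eIF3a, which lay far from the other genes on replicate 3. Over all 28 translation genes the correlation was -0.44 (rho = -0.45), and without eIF3a it was -0.27 (rho = -0.38) over the other 27. These are correlations across genes of the same arrays, and genes are not independent replicates. The difference from other genes was not tested. On replicates 1 and 2, 11 of 18 translation genes lay on opposite sides (61.1%), beside 54.1% of the 947 genes measured on both. Those arrays correlated at r = -0.25 (rho = -0.23) over the 18 genes. Over the 947 genes they correlated at r = -0.05 (rho = -0.09), so the agreement of replicates 3 and 4 over all genes was not shared by this pair.

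**Figure D4:**
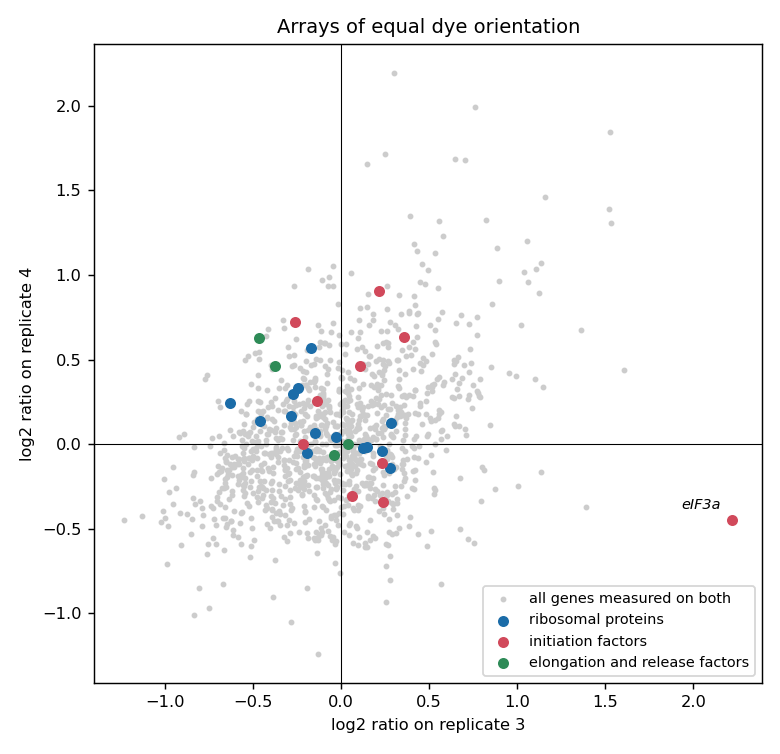
Log2 ratio on replicate 3 (x axis) against replicate 4 (y axis), array medians at 0 and both arrays turned in sign. Grey points are the 1245 genes measured on both arrays and coloured points the 28 translation genes among them. Of the coloured points 20 lie upper left or lower right of the origin, and eIF3a stands at 2.22 and -0.45.

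Duplicate spots give the spotting noise within an array, which is only a part of the error of that array. Each probe was spotted as a pair, and over 121 pairs of the 30 genes the median gap between the spots of a pair was 0.12. The medians by array were 0.12, 0.16, 0.09 and 0.13 for replicates 1 to 4, against 0.11, 0.17, 0.12 and 0.13 for all probes with 1 listed gene. For 24 of the 30 genes the SD over arrays exceeded the median gap of their own spots, and for 26 in the other reading. The shares over all genes are not given for these counts. The SD takes in the differences between pools, labelling and hybridisation, which the spots of a pair share. The gap was 0.035 for eIF3a, whose SD was 1.36, and 0.40 for eIF2Bbeta, whose SD was 0.44. The SD was under 0.2 for 8 of the 15 ribosomal protein genes and for 3 of the 15 translation factor genes, and in the other reading for 7 and 2.

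**Figure D5:**
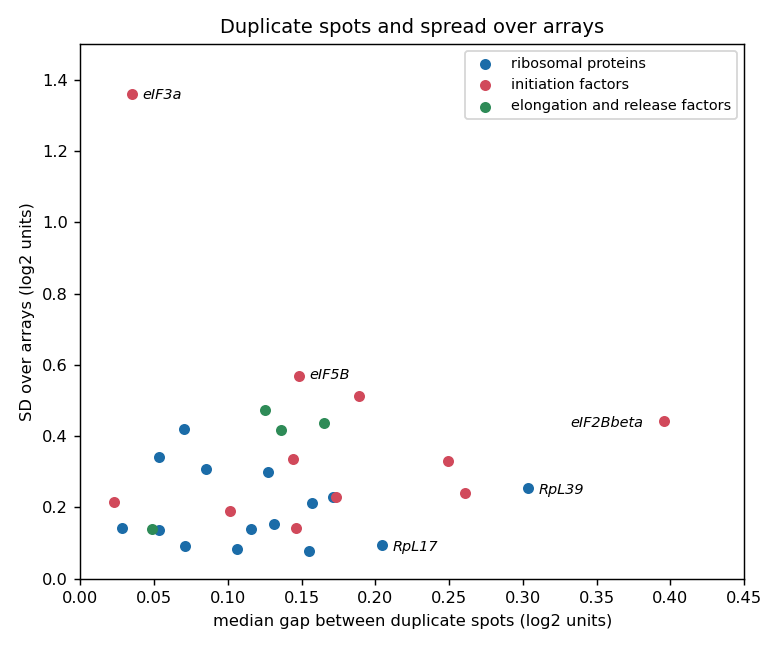
Median gap between duplicate spots on an array (x axis, log2 units) against the SD over arrays (y axis, log2 units, replicates 3 and 4 turned in sign) for the 30 translation genes, coloured by class. The gene eIF3a combines a gap of 0.035 with an SD of 1.36, and the SDs of the 15 ribosomal protein genes lie between 0.08 and 0.42.

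Genes that control or assist translation were also described from lists. Of 39 listed genes of the TOR pathway and translational control 5 had values on at least 3 arrays, and 0 passed in either direction. The RNA helicase gene bel, which acts in initiation, was at 0.23, 0.58, 0.90 and 0.96 and had a mean of 0.67 ± 0.34 (SD, n = 4; limma adjusted p = 0.235), above the median on all 4 arrays. Its mean was -0.26 with replicates 3 and 4 as deposited. The gene orb2, which encodes a regulator of translation at synapses, was at 0.43, -0.21, 0.65 and 0.49. Its mean was 0.34 ± 0.38 (SD, n = 4; limma adjusted p = 0.749), and the other reading put it at -0.23.

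Of 34 listed genes of ribosome assembly and the nucleolus 2 were measured and 0 passed. They were the helicase gene pit, with a mean of -0.20 ± 0.48 (SD, n = 4), and Bka, with -0.08 ± 0.31 (SD, n = 4), and both were above 0 in the other reading, at 0.21 and 0.24. Of 30 listed ribosome-associated and nascent-chain factors 6 were measured and 0 passed. The eIF2-binding regulator gene kra had a mean of 0.21 ± 0.53 (SD, n = 3) and Sec61gamma, a subunit of the protein channel of the endoplasmic reticulum, one of 0.17 ± 0.15 (SD, n = 4). As deposited they were at -0.47 and -0.07. Of 25 mitochondrial synthetases and translation factors 1 was measured, GluRS-m, with a mean of -0.13 ± 0.47 (SD, n = 4) and of 0.39 in the other reading, and it did not pass.

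Markers of the cell types of the head were checked in the same fit, and many of their means differed between the readings. Of 19 photoreceptor genes 7 had values, 2 with means above 0 and 5 below, and their median was -0.06, or 0.04 in the other reading. Arr1 was at 0.24 and Pdh at -0.17 (0.10 and -0.05 in the other reading). Of 15 neuronal genes 3 had values, all with means below 0, and elav was not among them. AstC was at -0.43 and Pdf at -0.40, but at 0.01 and 0.08 with replicates 3 and 4 as deposited, and Gad1 was at -0.18 and -0.16. Of 11 glial genes 3 had values, and repo was not among them. Gs2 and loco were both at 0.09 and Nrg at -0.07, and in the other reading they were at 0.09, -0.21 and -0.03.

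Of 16 fat body genes 9 had values, 7 with means above 0 and 2 below. Among them apolpp rose to a mean of 1.45 ± 0.67 (SD, n = 4; limma adjusted p = 0.0274), while the other reading put it at -0.24, where it did not pass. Desat1 was at 0.78, and at -0.09 in the other reading. The list's median was 0.14, or -0.24 in the other reading. Of 16 muscle genes 5 had values, 1 with a mean above 0 (Act79B, 0.09) and 4 below, with a median of -0.11, or -0.12 in the other reading. Mlc1 was at -0.41 and Mlc2 at -0.27, and at -0.09 and -0.03 as deposited. The haemocyte gene Col4a1 was at 0.13 (-0.34 in the other reading), the testis gene ocn at 0.52 (0.60) and the digestive genes Mal-A2 and Jon25Biii at -0.26 (-0.03) and 0.10 (0.18). Apart from apolpp, 0 of these markers passed. The array medians of the fat body list were -0.10, 0.65, 0.32 and 0.50 for replicates 1 to 4, beside 0.03, 0.10, -0.15 and 0.10 for the ribosomal protein genes. Whether the makeup of the pools bears on the translation genes was not tested.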

How the data were processed

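Heads of pilocarpine-fed and control males were compared on 4 two-colour cDNA arrays. Per the series' design text and the labels, the authors quantified scans in GenePix Pro 6.0, normalized ratios in Acuity 4.0 without dim spots, and filtered spots on flags, saturation, uniformity and signal over background. Each deposited value is a log2 ratio between channels; base 2 was inferred because the recurring maximum, 16.61 in 11 cells, then stands for a round linear ratio. Background correction and signal over background could not be examined from ratios. The labels name SAM 3.0, but limma was used.

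The 11 cells were dropped, paired spots averaged, each array centred on its median over probes (-0.14, -0.48, -0.29 and -0.42 as deposited) and replicates 3 and 4 turned in sign. The annotation, an old one, left 1713 of 3236 probes with a value unnamed and gave 13 several genes. By gene ID 1481 matched NCBI's gene table (assembly Release 6 plus ISO1 MT), and 29 kept the listed symbol. Probes of a gene were averaged. The mean of 1444 genes with at least 3 arrays was tested against 0, two-sided, by lmFit and eBayes (limma 3.58.1, R 4.3.3; Benjamini-Hochberg adjusted p of 0.05), a fit tested on simulated data. Genes on 3 arrays were fitted without the missing one; of the 30 translation genes 11 lacked replicate 2, 2 replicate 4 and 1 replicate 1.

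Members and lists were chosen with earlier results of these data known. All members were named, and of each other list the 2 measured genes with the largest mean in size; Gad1, Nrg and Act79B were added after their values were seen. The precision is limited by the number of arrays. Alternatives covered direction, centring, missing values, the ceiling, probes, the dye, the variance prior and each replicate.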

Additional observations from a re-analysis of the deposited data

Results flagged for a closer look

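Single arrays were set against the others for the 16 translation genes measured on all 4 arrays, by the gap to the nearest array over the whole range. In the reading with replicates 3 and 4 turned, 1 of the 16 genes stood out. This was RpL27 on replicate 3, at a log2 ratio of -0.63 against 0.13, 0.24 and 0.24 on replicates 1, 2 and 4. In the other reading 1 of the 16 stood out, eEF1alpha2 on replicate 2, at -0.25, and its mean without that array was 0.06 in place of -0.01. For normally distributed values chance flags about 1 in 20 such genes. The share flagged over all genes on 4 arrays is not given.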

How the results depend on the processing

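The count of 0 translation genes past the threshold held under every alternative run but one. That exception, chosen after seeing the data, left the arrays uncentred in the other reading, where all array medians are below 0. There 237 of all genes passed, all lower (16.4%), and 4 of the 30 translation genes (13.3%), namely eIF2Bbeta (-0.63, limma adjusted p = 0.0189), eIF3a (-0.73, 0.0295), eIF4A (-0.55, 0.0379) and eIF4G1 (-0.52, 0.0468). The medians of the ribosomal protein and translation factor genes were then -0.28 and -0.39, with the median of all genes at -0.31. The count over all genes, 2 as reported, was 0 in the other reading, 1 with genes on all 4 arrays only, 1 with 1 probe per gene, 4 with the dye as a covariate and 0 to 18 with a replicate left out (0 when replicate 2 or 4 was left out, 5 when it was replicate 1 and 18 when it was replicate 3), and 0 in the other reading without any one replicate. The translation factor median, 0.07 as reported, was -0.063 in the other reading, 0.021 to 0.19 with a replicate left out and, in the other reading, -0.072, -0.059, -0.0725 and -0.0397 with replicates 1, 2, 3 and 4 left out in turn. The ribosomal protein median stayed within its spread between arrays under the remaining alternatives. No paired analysis was possible because each array already pairs a drug-fed pool with its control pool, and the arrays form 1 group. Signal over background was not used here, so what dim spots limit was not examined.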
